A study of Rattus norvegicus with 15 samples.

Results

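Gene expression in lung was compared between exposed rats that received Wendan Decoction and exposed rats that did not, with 5 RNA-seq libraries in each group and therefore 10 of the 15 libraries of the series. Libraries were taken by their labels. The untreated model group (COPD) held wild-type rats given lipopolysaccharide and smoke (LPS/Smoke in the labels) through the trachea to model chronic obstructive pulmonary disease. The treated group (WDD) had the same genotype and the same exposure and was also given the decoction into the stomach. The other 5 libraries, from normal control rats of that genotype, are given as the background level and were not tested against the decoction group. The sources used here do not give strain, sex, age, doses or the length of treatment. Whether the libraries of a group came from separate animals is not stated in the labels, so p-values measure only the spread between these samples.

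Chronic obstructive pulmonary disease joins inflammation of the airways with loss of alveolar walls. Lipopolysaccharide, from the outer membrane of Gram-negative bacteria, binds Cd14 and Tlr4 and signals through Myd88 to the transcription factor NF-kappaB, which switches on cytokines and the chemokines that draw neutrophils and monocytes out of the blood. Wendan Decoction is a formula of traditional Chinese medicine made from several herbs. Lung tissue also holds alveolar type 1 cells, which form the gas exchange surface, surfactant-making type 2 cells, airway cells, capillary endothelium and lymphocytes. In such bulk tissue, fewer cells of a type and less RNA per cell cannot be told apart.

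Expression was given in FPKM, a fragment count divided by gene length and by library size, and 13172 of 22250 genes reached 1 FPKM in at least 5 libraries and were tested. Surfactant protein transcripts, which mark lung, were abundant throughout: the lowest Sftpc value among the 10 libraries was 1842 FPKM, in COPD 1. Whole libraries differed before any gene was considered. Mitochondrially encoded genes held 33.7% to 65% of the FPKM sum in COPD lungs, 19.1% to 26.5% in WDD lungs and 5.19% to 9.62% in controls, and 44.9% ± 12.4 against 21.7% ± 2.9 (mean ± SD, n = 5) gave p = 0.00794 in a two-sided exact permutation test, the smallest value that 5 against 5 allows. Median-of-ratios scaling, which divides a library by a factor taken from its typical gene, gave factors of 0.574 to 0.829 for COPD, 1.06 to 1.14 for WDD and 1.3 to 1.37 for control libraries. Every gene was therefore read on the deposited values and on the scaled values. COPD 5 stood apart, with a mean correlation of 0.889 with the other COPD libraries against 0.948 to 0.951 for those, and WDD 4 and WDD 5 were the most alike pair without any identical column. The part of these library differences in the results below was not tested.

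**Figure D1:**
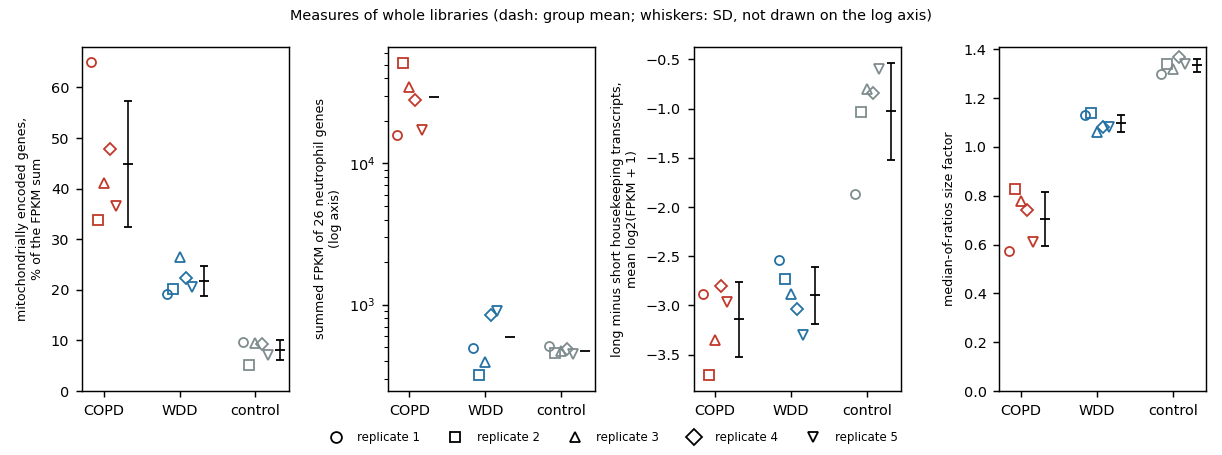
Measures of whole libraries, one point per library with a marker per replicate number: the mitochondrially encoded share of the FPKM sum (%), the summed FPKM of 26 neutrophil genes (log axis), the difference between long and short housekeeping transcripts (mean log2(FPKM + 1)) and the size factor. COPD and WDD libraries do not overlap in the mitochondrial share, the neutrophil sum and the size factor. They overlap in the difference between long and short transcripts, where both lie below the controls.

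Most of the called genes were higher with the decoction on the deposited values, and the balance moved with the scaling. As deposited, 7526 genes were higher in WDD lungs (57.1% of those tested) and 873 lower (6.63%), at an adjusted p under 0.05 in limma. After scaling 3075 were higher (23.3%) and 2819 lower (21.4%). The median log2 fold change of all tested genes, on the log2(FPKM + 1) scale used throughout, was 0.54 as deposited and 0.03 scaled. All 3075 genes called higher after scaling were also called higher as deposited, and all 873 called lower as deposited were also called lower after scaling. These 3075 (23.3%) and 873 (6.63%) genes are written below as rising or falling under both scalings. The shares of all genes in this paragraph are the background for every count of list members below. A further 4395 genes passed as higher on the deposited values alone, 1890 as lower on the scaled values alone, and 56 were called higher as deposited and lower after scaling.

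The falls reached further than the rises. A log2 fold change of 4 or more under both scalings was seen in 32 falling and 2 rising genes, and one of 2 or more in 184 and 115. The falling counts hold genes, such as Orm1 and Il6, that reached the filter through the COPD libraries alone. The fall of such genes was built into the filter, and their number was not counted. The libraries of the decoction group also lay closer together. The SD of log2(FPKM + 1) over 5 libraries had a median of 0.179 in WDD lungs, 0.397 in COPD lungs and 0.218 in controls, and it was larger in COPD than in WDD lungs for 85% of genes.

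**Figure D2:**
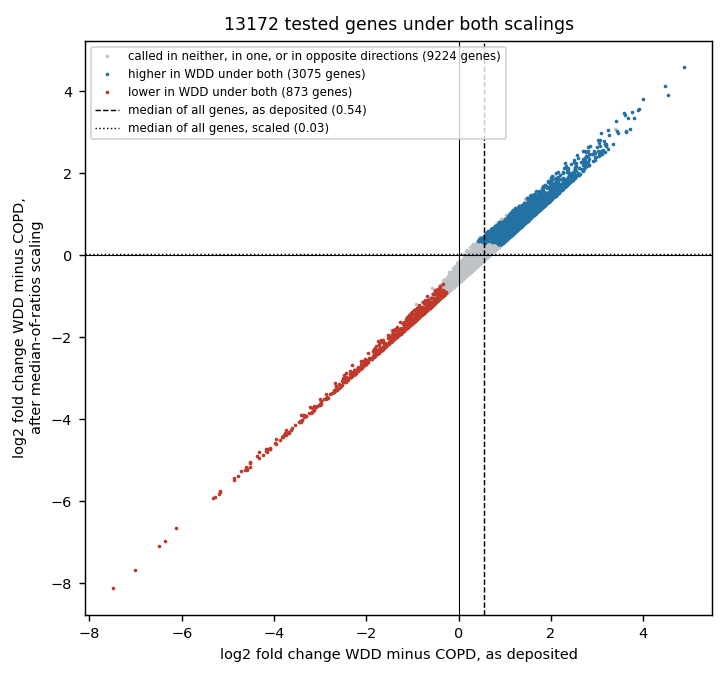
Log2 fold change of WDD against COPD lungs for each tested gene as deposited (horizontal axis) and after median-of-ratios scaling (vertical axis). Genes called under both in the same direction are coloured, and dashed and dotted lines mark the medians of all genes at 0.54 and 0.03.

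The 12 largest falls, ranked by the smaller of the 2 changes, were genes of neutrophils, of the interleukin-1 system and of the response to lipopolysaccharide and interferon. Their leaders were S100a8 and S100a9, which form calprotectin, a protein that fills neutrophil cytoplasm. S100a8 stood at 4747, 15681, 10144, 8617 and 3076 FPKM in COPD 1 to COPD 5 and at 20.1, 18.7, 22.1, 95.6 and 117 FPKM in WDD 1 to WDD 5, against 14.2 ± 7.5 FPKM in controls (mean ± SD). The decoction libraries thus lay far below every COPD library, and WDD 4 and WDD 5 lay above the other 3 WDD libraries. The log2 fold change was -7.48 ± 0.56 and -8.13 ± 0.54 (adjusted p = 6.01e-08 and 1.13e-08, limma). For S100a9 it was -7.02 ± 0.48 and -7.67 ± 0.46. Here and below, paired changes are given as deposited and then scaled, each ± SE.

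Mmp8, neutrophil collagenase, stood at 360, 541, 446, 618 and 405 FPKM in COPD 1 to COPD 5 and at 2.28, 2.43, 2.2, 9.41 and 9.19 FPKM in WDD 1 to WDD 5, a log2 fold change of -6.48 ± 0.32 and -7.10 ± 0.31 (adjusted p = 1.06e-09 and 1.73e-10, limma). Il1r2, a decoy receptor that neutralises interleukin-1, had 217, 430, 202, 344 and 277 FPKM in the COPD libraries in order and 0.992, 1.03, 1.14, 6.3 and 6.46 FPKM in the WDD libraries. Its change was -6.37 ± 0.40 and -6.97 ± 0.39. WDD 4 and WDD 5 again held the highest decoction values of both genes. Csf3r, the receptor for the granulocyte growth factor, ran from 159 to 339 FPKM in COPD and from 4.22 to 11.7 FPKM in WDD lungs, a change of -4.86 ± 0.24 and -5.49 ± 0.22, with controls at 8.05 ± 1.47 FPKM.

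Orm1, an acute-phase plasma protein, stood at 62.3, 154, 82.6, 167 and 50.8 FPKM in COPD 1 to COPD 5 and stayed at 0.589, 0.291, 0.073, 0.291 and 0.545 FPKM in WDD 1 to WDD 5, close to its control level of 0.234 ± 0.192 FPKM. Its log2 fold change was -6.12 ± 0.28 and -6.66 ± 0.23, a description, since it reached the filter through the 5 COPD libraries alone. Ebi3, a subunit of interleukin-27 and interleukin-35, fell by 5.33 and 5.91. Ifitm6, an interferon-induced membrane protein, fell by 5.28 and 5.90. Acod1, which makes itaconate in activated macrophages, fell by 4.87 and 5.42, from between 17.8 and 288 FPKM in COPD to between 0.213 and 0.972 FPKM in WDD lungs. The highest COPD value of Ebi3 and of Acod1 was that of COPD 5, and without it the deposited changes were -4.82 and -4.21.

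**Figure D3:**
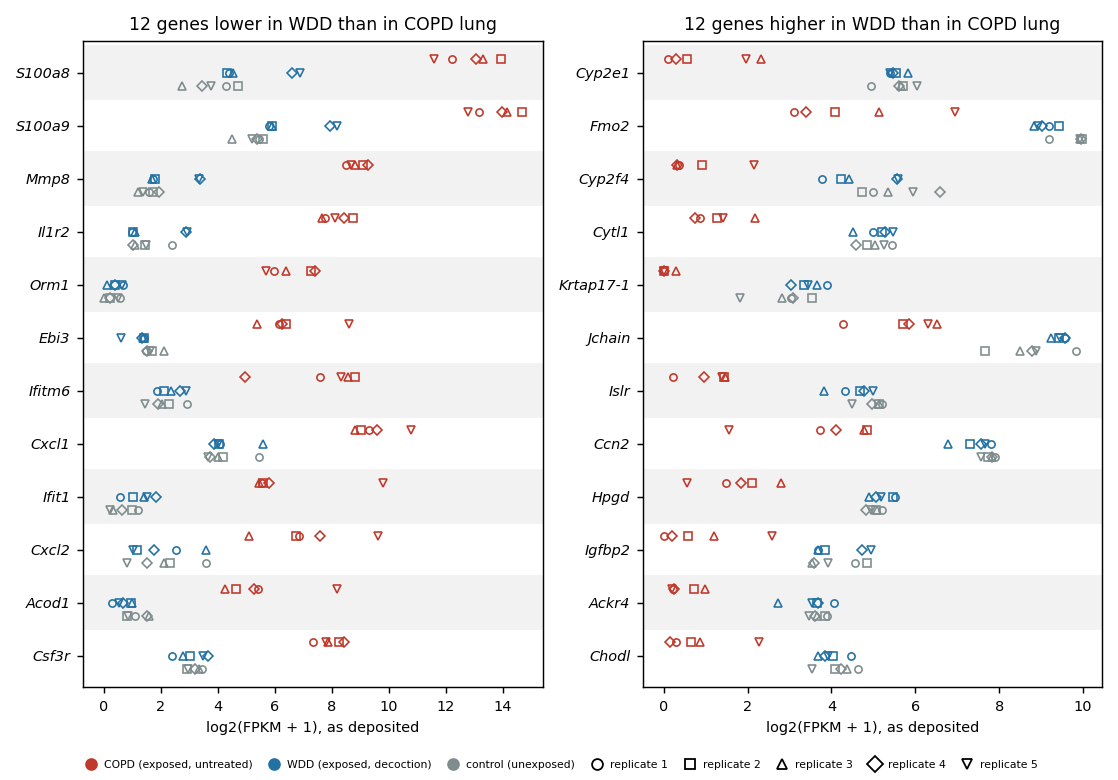
Log2(FPKM + 1) in each of 15 libraries for the 12 genes with the largest falls (left) and the 12 with the largest rises (right) in WDD against COPD lungs, with one marker shape per replicate number. Groups that do not overlap were a condition of the choice, so what the plot shows is the distance between them and the spread within each.

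In the list of chemokines that attract neutrophils, which also holds the platelet chemokine Pf4, 3 of 6 tested genes fell under both scalings. Of all genes 6.63% did so. As deposited 1 rose, against 57.1% of all genes, and after scaling 0. Cxcl1 stood at 625, 521, 444, 765 and 1772 FPKM in COPD 1 to COPD 5 and at 15.8, 15.3, 47.1, 13.6 and 15.1 FPKM in WDD 1 to WDD 5, with a log2 fold change of -5.18 ± 0.41 and -5.83 ± 0.45 (adjusted p = 1.19e-07 and 8.34e-08, limma). WDD 3 held the highest decoction value and COPD 5 the highest of all. Cxcl2 stood at 113, 107, 33.2, 192 and 784 FPKM in COPD lungs and at 4.83, 1.25, 11.1, 2.36 and 1.04 FPKM in WDD lungs, a change of -5.16 ± 0.70 and -5.77 ± 0.73. Cxcl6, which also reached the filter through COPD libraries alone, lay between 3.48 and 41.4 FPKM in COPD and between 0 and 0.274 FPKM in WDD lungs. Cxcl3, by contrast, had 97.3, 123, 184, 90.9 and 227 FPKM in COPD and 148, 171, 159, 120 and 124 FPKM in WDD lungs, and its changes of 0.08 ± 0.25 and -0.57 ± 0.25 did not pass (adjusted p = 0.796 and 0.0794, limma). The platelet chemokine Pf4 passed as higher on the deposited values only (1.22 ± 0.41 and 0.58 ± 0.43), and no longer without COPD 1 or without COPD 4 (log2 fold change 0.93, adjusted p = 0.0552, and 0.95, adjusted p = 0.052, limma).

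The stretches upstream of the start site are shown for 4 of the largest falls and the largest rise, because NF-kappaB and C/EBP factors are known to drive many genes of inflamed tissue and of liver. They are the 250 bases before the annotated start in RefSeq (rat build GRCr8), read in the direction of transcription, with capitals marking NF-kappaB letters (GGG, any 2 bases, TTTCC), C/EBP letters (TTGCNNAA) and TATA letters (TATAAA) on either strand. No capital run overlaps another. The 4 falls shown are those of the 12 largest whose windows held NF-kappaB or C/EBP letters. The windows of S100a9, Ifitm6, Acod1 and Csf3r held neither, and S100a8, Il1r2, Ebi3 and Ifit1 had no window to read.
Cxcl1: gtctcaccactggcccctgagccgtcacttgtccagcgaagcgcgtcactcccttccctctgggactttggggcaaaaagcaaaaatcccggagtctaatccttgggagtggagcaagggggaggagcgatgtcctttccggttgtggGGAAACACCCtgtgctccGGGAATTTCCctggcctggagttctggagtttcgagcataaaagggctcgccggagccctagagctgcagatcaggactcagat
Cxcl2: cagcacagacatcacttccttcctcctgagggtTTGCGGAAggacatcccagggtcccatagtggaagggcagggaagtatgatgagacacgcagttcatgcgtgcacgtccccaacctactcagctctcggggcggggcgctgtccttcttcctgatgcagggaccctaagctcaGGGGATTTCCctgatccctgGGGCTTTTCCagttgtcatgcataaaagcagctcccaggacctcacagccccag
Mmp8: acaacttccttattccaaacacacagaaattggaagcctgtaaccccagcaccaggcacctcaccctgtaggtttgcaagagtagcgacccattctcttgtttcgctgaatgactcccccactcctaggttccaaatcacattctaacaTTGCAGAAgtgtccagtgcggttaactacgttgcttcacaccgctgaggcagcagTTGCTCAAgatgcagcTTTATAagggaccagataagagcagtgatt
Orm1: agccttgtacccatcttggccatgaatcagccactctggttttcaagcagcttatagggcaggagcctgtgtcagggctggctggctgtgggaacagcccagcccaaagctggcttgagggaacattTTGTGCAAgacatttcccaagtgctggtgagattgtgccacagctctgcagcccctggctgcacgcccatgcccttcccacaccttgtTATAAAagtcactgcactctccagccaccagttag
Cyp2e1: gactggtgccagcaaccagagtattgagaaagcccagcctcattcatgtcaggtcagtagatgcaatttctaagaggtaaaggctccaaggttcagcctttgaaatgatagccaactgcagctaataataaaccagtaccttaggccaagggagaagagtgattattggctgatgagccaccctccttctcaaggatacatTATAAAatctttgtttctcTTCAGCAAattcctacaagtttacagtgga
These lie at chr14:17479322-17479571 (minus strand), chr14:17467256-17467505 (minus strand), chr8:13008640-13008889, chr5:81788259-81788508 and chr1:205269717-205269966 (plus strand), and the build differs from the one the reads were aligned to. In Cxcl1 the NF-kappaB letters begin 102 and 84 bases before the start, and in Cxcl2 they begin 74 and 54 bases before it, with C/EBP letters at 217. Mmp8 holds C/EBP letters at 101 and 46 bases and TATA letters at 30, Orm1 C/EBP letters at 123 and TATA letters at 35, and Cyp2e1 TATA letters at 49 and C/EBP letters at 30. Over windows of 300 bases, 250 before to 50 after the start, 9904 of 13172 tested genes matched by symbol. NF-kappaB letters occurred in 1.89% of these windows, in 3.42% of the 643 falling under both scalings and in 1.37% of the 2263 rising under both. Among genes that changed by 2 or more under both, 10 of 134 falling windows (7.46%) and 0 of 62 rising windows held them. The falling windows include that of Orm1, whose fall was built into the filter. C/EBP letters occurred in 8.64% of all windows, in 17.2% of those 134 and in 24.2% of those 62, and in 11.8% of the 643 and 8.93% of the 2263. Interferon response letters (GAAA, any 2 bases, GAAA) occurred in 3.04%, 5.22% and 3.23%, and TATA letters in 7.02%, 17.9% and 12.9%, of all windows, those 134 and those 62. A match is a description of letters and not of a binding site.

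Neutrophil markers as a list fell almost throughout. Of 30 listed genes 29 were in the table and 26 were tested, of which 22 fell and 1 rose as deposited, and 24 fell and 1 rose after scaling, against 6.63% and 21.4% of all genes. Their median change was -3.47 and -4.07, beside 0.54 and 0.03 for all genes. Their summed FPKM ran from 15903 to 51724 in COPD, from 316 to 908 in WDD and from 448 to 509 in control lungs, and the group means differed by -29013 (exact permutation p = 0.00794, two-sided). With S100a8 and S100a9 left out the sum was still 1962 to 10014 in COPD, 238 to 511 in WDD and 383 to 448 in control lungs. Among genes of granule proteins that neutrophils make in the marrow, Ltf and Mpo did not reach the filter, and Elane ran from 2.17 to 4.78 FPKM in COPD and from 0 to 0.768 FPKM in WDD lungs. Elane reached the filter through COPD libraries alone, so its fall in the count is a description. Without COPD 5, where Elane was not tested, 22 of 25 genes fell and 1 rose as deposited. The part of the fall of neutrophil markers in the other falls below was not tested.

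Of the chemokine receptors of neutrophils Cxcr2 fell. Cxcr2, the receptor for Cxcl1 and Cxcl2, fell from between 44.4 and 130 FPKM in COPD to between 1.3 and 6.03 FPKM in WDD lungs, a change of -4.62 ± 0.34 and -5.23 ± 0.33, and the gelatinase Mmp9 fell by 4.60 and 5.16. Cxcr1, a relative of Cxcr2, was the rising member, from 1.48, 1.21, 1.92, 2.13 and 0.839 FPKM in COPD to 8.64, 6.52, 4.06, 3.84 and 2.43 FPKM in WDD lungs (1.21 ± 0.25 and 0.77 ± 0.24, adjusted p = 0.000597 and 0.0164, limma), with controls at 11.6 ± 2.81 FPKM. It did not pass after quantile normalisation (0.56, adjusted p = 0.066, limma). Ngp, a granule protein, was listed at 0.147, 0, 0.427, 0.245 and 349 FPKM in COPD 1 to COPD 5, so that COPD 5 alone carried it, and its change did not pass. The integrin chain Itgb2 and the oxidase subunit Cybb, which macrophages also make, passed as lower only after scaling. Itgb2 had -0.53 ± 0.25 and -1.18 ± 0.22, and -0.81 as deposited without COPD 5, which passed. Cybb had -0.57 ± 0.28 and -1.21 ± 0.24, and -0.84 as deposited without COPD 1, which passed.

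Adhesion molecules through which leukocytes leave the blood also fell in part. Of 17 tested, 8 fell and 3 rose as deposited (6.63% and 57.1% of all genes), and 11 and 2 after scaling (21.4% and 23.3%). Without COPD 4 the deposited rises numbered 5. P-selectin, Selp, which activated endothelium and platelets display, stood at 21.3, 40.2, 22.1, 31.6 and 174 FPKM in COPD and at 1.46, 0.956, 1.24, 1.35 and 1.75 FPKM in WDD lungs. For Selp the log2 fold change was -4.14 ± 0.40 and -4.72 ± 0.43 (adjusted p = 7.01e-07 and 5.31e-07, limma). The integrin chain Itgam, on leukocytes, fell by 2.20 and 2.80. Icam1, its endothelial partner, ran from 69 to 287 FPKM in COPD and 141 to 194 FPKM in WDD lungs and did not pass under either scaling (0.07 ± 0.26 and -0.58 ± 0.25). Without COPD 1 it passed as lower after scaling (-0.80, adjusted p = 0.0073, limma). The matrix integrin chain Itgb1 and the adhesion molecule Alcam rose under both (1.65 and 1.56 as deposited).

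Chemokines that attract monocytes and T cells moved in both directions. Of 17 tested, 8 fell and 2 rose under both scalings. Ccl2, the main attractant of monocytes, stood at 68.6, 89.3, 70.3, 90 and 314 FPKM in COPD and at 5.31, 6.58, 7.31, 3.02 and 4.66 FPKM in WDD lungs. For Ccl2 the log2 fold change was -4.09 ± 0.35 and -4.71 ± 0.37 (adjusted p = 2.08e-07 and 1.06e-07, limma). Ccl7 fell by 3.80 and 4.41, and Ccl12 by 4.37 and 4.91, where COPD 5 was the lowest COPD library at 6.11 FPKM against 35.4 or more in the others. Ccl20, which attracts Ccr6-bearing cells, was at 7.49, 23.1, 14.4, 7.85 and 338 FPKM in COPD and 1.53, 4.24, 3.79, 8.02 and 11.3 FPKM in WDD lungs. Its deposited change of -2.08 ± 0.77 became -1.14 without COPD 5, and it did not pass without WDD 1 (-1.77, adjusted p = 0.0688, limma). Ccl5, made by T and NK cells, rose from between 16.9 and 43.7 FPKM in COPD to between 68.3 and 180 FPKM in WDD lungs (2.03 ± 0.25 and 1.40 ± 0.23), and Cxcl14, made by epithelium and stroma, rose by 2.18 and 1.59. Without COPD 5 the deposited rises in this list numbered 5 and the falls 9.

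Chemokines and receptors that place lymphocytes did not move as one. Of 9 tested, 4 rose and 1 fell under both scalings (23.3% and 6.63% of all genes). Ccl21, which guides cells into lymphatic vessels, rose from between 14.1 and 88.3 FPKM in COPD to between 93 and 210 FPKM in WDD lungs (2.21 ± 0.44 and 1.57 ± 0.45). Its receptor Ccr7 rose by 1.45 and 0.94. Cxcr3, on effector T cells, rose by 2.26 and 1.80. Cxcr5, the receptor of follicular B cells, fell from 3.99, 8.62, 4.82, 4.61 and 1.12 to 0.954, 1.14, 0.448, 1.04 and 0.744 FPKM (-1.45 ± 0.29 and -1.92 ± 0.27), with COPD 5 alone among the WDD values. Ccl19 and Cxcl13 overlapped widely and did not pass: Cxcl13 had 22.8, 21.1, 79.8, 69.3 and 5.8 FPKM in COPD and 13.7, 27.6, 9.95, 40.3 and 43.4 FPKM in WDD lungs. Without COPD 5 Cxcl13 passed as lower after scaling (-1.37, adjusted p = 0.0208, limma).

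Genes of the lipopolysaccharide receptor complex and its signalling were lower in part. Of 15 genes, 8 fell and 1 rose as deposited, and 11 and 1 after scaling, and 2 rose as deposited without COPD 5. Lbp, which hands lipopolysaccharide to Cd14, stood at 56.9, 101, 68.6, 75.6 and 44.2 FPKM in COPD and at 12.8, 13.5, 16.5, 16.5 and 17.3 FPKM in WDD lungs. For Lbp the log2 fold change was -2.06 ± 0.18 and -2.70 ± 0.14 (adjusted p = 3.03e-07 and 1.10e-09, limma). Cd14 itself fell by 1.34 and 1.98, and its deposited groups overlapped because COPD 1, at 24 FPKM, lay below all WDD values of 24.2 to 28.3 FPKM. Tlr2, the receptor for bacterial lipoproteins, fell by 2.43 and 3.05, and the adaptor Myd88 by 1.36 and 2.0. Tlr4 passed as lower only after scaling (-0.44 ± 0.21 and -0.98 ± 0.21), although its deposited value passed without COPD 1 (-0.61) and without WDD 2 (-0.54). Irak3, a brake on this pathway, fell from between 35.3 and 55.6 FPKM in COPD to between 7.13 and 8.98 FPKM in WDD lungs (-2.33 ± 0.17 and -2.96 ± 0.15), and Tab1, a partner of the kinase Tak1, rose by 0.95 and 0.42.

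Within the NF-kappaB system several regulators and inducible subunits fell, while Rela, its main activating subunit, did not pass as deposited. Of 18 genes 10 fell and 0 rose as deposited, and 16 fell and 0 rose after scaling. Bcl3, an inducible co-regulator, stood at 61.5, 105, 74.3, 84.4 and 219 FPKM in COPD and at 11.4, 11.8, 12.4, 11.3 and 10.2 FPKM in WDD lungs. For Bcl3 the log2 fold change was -2.99 ± 0.25 and -3.63 ± 0.27 (adjusted p = 1.81e-07 and 4.50e-08, limma). Zc3h12a, which degrades cytokine transcripts, fell by 2.74 and 3.37. The inhibitor Tnip1 and the nuclear co-regulator Nfkbiz fell by 1.97 and 1.71 as deposited, and the subunits Nfkb2 and Relb by 1.88 and 1.55. Rela had 30.1, 38.8, 34.9, 33.7 and 88.9 FPKM in COPD and 42.9, 42.6, 40.1, 39.7 and 38.6 FPKM in WDD lungs. Its changes were -0.03 ± 0.22 and -0.66 ± 0.25, of which the scaled one passed (adjusted p = 0.0389, limma), and only COPD 5 lay above the WDD libraries as deposited. Nfkb1 (-0.62 ± 0.27 and -1.26 ± 0.29) and Rel (-0.47 ± 0.25 and -1.0 ± 0.27) also passed only after scaling, although Nfkb1 passed as deposited without COPD 1 (-0.83) or COPD 2 (-0.71). Nfkbia, the inhibitor resynthesised first, had an adjusted p of 0.0405 as deposited (limma, -0.68 ± 0.28), and leaving out COPD 4, COPD 5, WDD 1, WDD 2, WDD 4 or WDD 5 ended that call, with values of -0.42 (without COPD 5) to -0.71 (without WDD 5).

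Both the cytokine Il1b and its natural inhibitors fell. Il1b, the inflammatory cytokine, stood at 163, 342, 185, 285 and 1355 FPKM in COPD and at 17.3, 20, 31.5, 30.6 and 28 FPKM in WDD lungs. For Il1b the log2 fold change was -3.69 ± 0.43 and -4.33 ± 0.46 (adjusted p = 4.27e-06 and 2.51e-06, limma). Its antagonist Il1rn fell together with it, from between 163 and 498 FPKM in COPD to between 13.5 and 17.5 FPKM in WDD lungs (-4.15 ± 0.26 and -4.79 ± 0.28). The signalling receptor Il1r1 and its partner Il1rap fell by 0.95 and 1.78 as deposited, and the decoy Il1r2 is described above. Il1a, whose deposited values were 6.15, 9.79, 9.05, 16.9 and 102 FPKM in COPD and 29.9, 17.3, 20.6, 36.8 and 40.6 FPKM in WDD lungs, did not pass, but without COPD 5 it passed as higher (log2 fold change 1.40, adjusted p = 0.000567, limma). Of 12 genes of the family, 7 fell and 1 rose under both scalings. The rising member was Il18r1 (1.07 ± 0.18 and 0.67 ± 0.17), which did not pass after quantile normalisation (0.44, adjusted p = 0.0522, limma), and on the deposited values Il18 and the alarmin Il33 rose with it (0.85 and 1.09), a count of 3 that became 5 without COPD 5. Neither passed without both COPD 1 and COPD 5 (0.49 and 0.53). In the inflammasome, which activates interleukin-1 beta, the sensors Nlrp3 and Nlrc4 fell by 2.04 and 1.73, and Casp1 fell by 0.72 and 1.36.

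Il6, which drives the acute-phase response, reached the filter through the 5 COPD libraries alone, so that its fold change is a description. It stood at 28.2, 17, 12.1, 23.1 and 98 FPKM in COPD 1 to COPD 5 and at 0.144, 0.071, 0.143, 0.213 and 0.532 FPKM in WDD 1 to WDD 5, against 0.199 ± 0.244 FPKM in controls. Its log2 fold change was -4.52 ± 0.38 and -5.04 ± 0.43. Osm, a cytokine of the same family from neutrophils and macrophages, fell by 2.27 and 2.86. Lifr, a receptor chain of that family, rose from between 0.599 and 1.49 FPKM in COPD to between 2.79 and 6.17 FPKM in WDD lungs (1.45 ± 0.32 and 1.07 ± 0.32), with controls at 30.4 ± 12.5 FPKM, and did not pass after quantile normalisation (0.83, adjusted p = 0.0649, limma). In all 8 of 12 genes fell and 1 rose under both scalings, and the fall of Il6, which is in that count, was built into the filter. Without COPD 5, where Il6 was not tested, 7 of 11 fell and 2 rose as deposited. Of 9 acute-phase genes 6 fell and 0 rose under both, a count that holds Orm1, whose fall was also built into the filter. As deposited 6 of 9 fell and 1 rose with all libraries, and 5 of 8 fell and 1 rose without COPD 5, where Orm1 was not tested. Hp, haptoglobin, stood at 124, 497, 374, 317 and 803 FPKM in COPD and 15.3, 17.7, 19, 31.6 and 32.3 FPKM in WDD lungs (-3.96 ± 0.37 and -4.60 ± 0.37).

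The tumour necrosis factor family was mixed. Of 14 genes, 3 rose and 5 fell under both scalings (23.3% and 6.63% of all genes), with median changes of -0.15 and -0.69. The receptors Tnfrsf1a and Tnfrsf1b fell by 1.66 and 1.50 as deposited, as did the death receptor Fas (-0.67), the T cell co-receptor Tnfrsf9 (-1.63) and the lymphotoxin chain Ltb (-1.29). The call of Fas ended without COPD 2, COPD 4, COPD 5, WDD 1, WDD 4 or WDD 5, at -0.40 (without COPD 5) to -0.67. Tnfsf13b, the B cell survival factor BAFF, rose by 1.47 and 0.97. Tnfsf10, the death ligand TRAIL, rose from between 3.34 and 15.3 FPKM in COPD to between 18.4 and 29.6 FPKM in WDD lungs, and Cd40lg, the helper signal of activated T cells, from between 0.156 and 0.485 FPKM in COPD to between 1.78 and 3.4 FPKM in WDD lungs. Among 16 apoptosis regulators 5 fell and 0 rose under both. As deposited 2 rose, Bad (1.45) and Casp9 (0.55), and the call of Casp9 ended without COPD 1, without COPD 5 or without any 1 WDD library, at 0.31 (without COPD 5) to 0.56. Bid, a death agonist, fell by 1.73, Pmaip1 (Noxa) by 2.03 and the inhibitor Birc3 by 3.02 as deposited.

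Several interferon-induced genes fell, and COPD 5 set much of their size. Ifit1, an antiviral RNA-binding protein, stood at 46, 46.3, 42.2, 54.5 and 879 FPKM in COPD 1 to COPD 5 and at 0.472, 1.04, 1.66, 2.55 and 1.81 FPKM in WDD 1 to WDD 5. Its log2 fold change was -5.16 ± 0.63 and -5.74 ± 0.67 (adjusted p = 5.83e-06 and 7.01e-06, limma), and -4.32 as deposited without COPD 5. Ifit3 fell by 3.74 as deposited, and its change was -3.05 without COPD 5, while Irf7, a transcription factor of the interferon loop, had -2.85 with all libraries and -2.24 without COPD 5. Isg15 went from -2.57 ± 0.69 to -1.65, and Ifit2 from -1.84 ± 0.77 to -0.76 when COPD 5 was left out. Mx1 and Mx2 did not pass as deposited (-1.37 ± 0.62 and -1.23 ± 0.56). Mx1 passed at -1.66 without COPD 4 and at -0.53 without COPD 5, and Mx2 at -1.49 and -1.50 without COPD 1 and COPD 4. Ifit2 passed as deposited with all libraries (adjusted p = 0.0468, limma) but not when any 1 WDD or control library was left out, with adjusted p of 0.0539 (without control 2) to 0.0841 (without WDD 3). Of 24 genes 10 fell as deposited and 17 after scaling, and 11 and 19 did so without COPD 5. As deposited 0 rose with all libraries, and 1 without COPD 2, COPD 3 or COPD 5. The list median was -1.20 and -1.83, and -0.48 and -1.06 without COPD 5.

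Complement genes split by subunit. C1qa, C1qb and C1qc, the chains of the recognition molecule C1q, which macrophages make, all rose: C1qa stood at 4.08, 13.4, 12, 8.03 and 17.6 FPKM in COPD and at 51.8, 58.3, 42.8, 70 and 78.5 FPKM in WDD lungs. For C1qa the log2 fold change was 2.45 ± 0.28 and 1.84 ± 0.28 (adjusted p = 3.85e-06 and 8.96e-05, limma). C1qb rose by 1.75 and 1.13, and C1qc by 1.71 and 1.08. The proteases of the same complex, C1r and C1s, fell by 0.80 and 0.77 as deposited. C3, the central component, fell from between 98.8 and 262 FPKM in COPD to between 28 and 40.4 FPKM in WDD lungs (-2.25 ± 0.25 and -2.89 ± 0.25), and Cd59, which shields host cells, rose by 1.50 and 0.85. Of 18 genes in all, 6 rose and 6 fell under both scalings (23.3% and 6.63% of all genes), with a median of 0.29 and 0.01.

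Macrophage genes went both ways. Mrc1, the mannose receptor, stood at 4.16, 13.5, 22.1, 12 and 16.7 FPKM in COPD and at 61, 38.6, 40.5, 37.5 and 35.1 FPKM in WDD lungs (1.69 ± 0.31 and 1.09 ± 0.29, adjusted p = 0.000202 and 0.006, limma), and Pparg, which maintains alveolar macrophages, rose by 1.46 and 0.92. Apoe, which carries lipids, rose from between 36.1 and 185 FPKM in COPD to between 426 and 761 FPKM in WDD lungs (2.70 ± 0.32 and 2.05 ± 0.32). Falling members were the chitinase-like Chi3l1, from between 299 and 672 FPKM in COPD to between 41.9 and 77.6 FPKM in WDD lungs (-2.98 ± 0.24 and -3.62 ± 0.19), the scavenger receptor Msr1 (-1.80 ± 0.23 and -2.31 ± 0.24) and the antibody receptor Fcgr1a (-2.14 ± 0.22 and -2.77 ± 0.22). The colony factor receptor Csf1r passed as higher as deposited only (1.07 ± 0.31 and 0.45 ± 0.27). Of 12 alveolar macrophage genes 3 rose and 3 fell under both scalings, and of 15 monocyte and interstitial macrophage genes 6 and 2. Of all genes 23.3% rose and 6.63% fell, so the count of rising alveolar macrophage genes was near the background.

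Genes of antigen presentation were higher in WDD lungs. Of 16 dendritic cell and MHC class II genes 14 rose as deposited and 12 after scaling, and 0 fell, with medians of 1.51 and 1.06. Cd74, the invariant chain of class II molecules, stood at 221, 612, 548, 365 and 649 FPKM in COPD and at 1648, 1699, 1991, 1689 and 1696 FPKM in WDD lungs. For Cd74 the log2 fold change was 1.96 ± 0.24 and 1.31 ± 0.22 (adjusted p = 6.44e-06 and 0.000195, limma). The class II chain RT1-Da rose by 2.33 and 1.69. RT1-Bb had 4.62, 2.09, 13.6, 1.44 and 23.3 FPKM in COPD and 67.5, 114, 88.5, 15.7 and 17.7 FPKM in WDD lungs, so that WDD 4 and WDD 5 fell below COPD 5, although the rise passed (2.77 ± 0.67 and 2.20 ± 0.71). Flt3 and Clec9a, found on dendritic cells that prime T cells, rose by 2.36 and 1.58 as deposited.

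Nearly all T cell genes rose. Of 18 genes 17 rose under both scalings and 0 fell, with medians of 1.47 and 1.10. Cd3e, a chain of the T cell receptor complex, stood at 0.431, 0.665, 0.783, 0.538 and 1.55 FPKM in COPD and at 14.8, 10.8, 17.1, 12.2 and 11.2 FPKM in WDD lungs. For Cd3e the log2 fold change was 3.0 ± 0.19 and 2.63 ± 0.22 (adjusted p = 1.43e-08 and 1.56e-07, limma). Cd3d and Cd3g rose by 2.93 and 2.48 as deposited, and the naive T cell factor Tcf7 by 2.73. Cd4, the helper cell co-receptor, rose from 0.646, 1.79, 2.77, 1.59 and 2.36 FPKM to 23.4, 28.6, 23.3, 14.9 and 14.4 FPKM (2.96 ± 0.26 and 2.50 ± 0.26). Cd8a was the exception, at 10.1, 23.8, 29.5, 25.4 and 4.28 FPKM in COPD and 10.5, 10.7, 14.9, 18.5 and 21.9 FPKM in WDD lungs (-0.06 ± 0.38 and -0.66 ± 0.35), and it passed as lower once COPD 1 and COPD 5 were both left out (log2 fold change -0.79, adjusted p = 0.00347, limma).

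Genes of antibody-forming cells rose too. Jchain, which joins secreted antibodies, was among the 12 largest rises, from 18.2, 50.8, 89.9, 56.9 and 77.8 FPKM in COPD 1 to COPD 5 to 760, 682, 599, 759 and 702 FPKM in WDD 1 to WDD 5 (3.73 ± 0.38 and 3.08 ± 0.37, adjusted p = 1.18e-06 and 8.62e-06, limma). Its control level was 475 ± 262 FPKM. The antibody heavy chain Ighm rose by 2.51 and 1.88, the plasma cell chaperone Mzb1 by 2.21 and 1.69, and the B cell receptor chains Cd79a and Cd79b by 1.87 and 1.61 as deposited. Pax5, the B cell identity factor, had 9.88, 6.66, 4.26, 6.93 and 0.247 FPKM in COPD and 0.958, 9.34, 4.05, 6.51 and 6.62 FPKM in WDD lungs and did not pass. Of 15 genes 7 rose and 0 fell under both scalings, although 1 fell as deposited without COPD 5. Of 12 NK and cytotoxic genes 2 rose, Klrd1 and Ccl5, and 1 fell under both scalings, beside 23.3% and 6.63% of all genes. Klrd1, an NK receptor chain, had 1.38 ± 0.21 and 0.87 ± 0.20. Gzma, the granzyme that fell, had -0.72 ± 0.31 and -1.36 ± 0.29, and its deposited call ended when any 1 of COPD 1 to COPD 4 or WDD 1 to WDD 3 was left out, at -0.55 to -0.73.

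**Figure D4:**
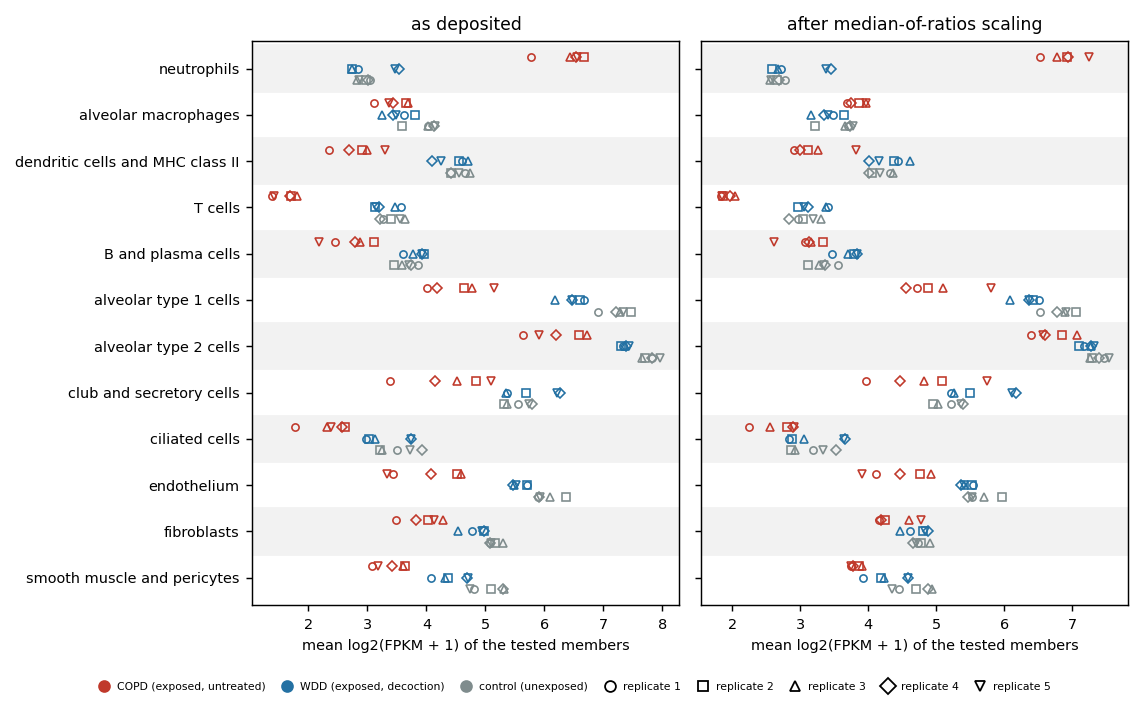
Mean log2(FPKM + 1) of the tested marker genes of 12 cell types in each of 15 libraries, as deposited (left) and after median-of-ratios scaling (right), with one marker shape per replicate number. Neutrophil markers of COPD lungs lie above those of both other groups, while markers of T cells, alveolar type 1 cells and endothelium in COPD lungs lie below.

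Alveolar type 1 cell genes rose in every case measured on the deposited scale. All 18 rose as deposited (57.1% of all genes did) and 17 after scaling (23.3%), with medians of 1.98 and 1.36. Aqp5, a water channel of their outer face, stood at 30.7, 98.1, 107, 47.4 and 43.4 FPKM in COPD and at 351, 378, 246, 283 and 315 FPKM in WDD lungs. For Aqp5 the log2 fold change was 2.40 ± 0.28 and 1.75 ± 0.22 (adjusted p = 3.52e-06 and 1.43e-05, limma). Ager, the receptor for glycated proteins that marks these cells, rose from between 178 and 655 FPKM in COPD to between 1144 and 1617 FPKM in WDD lungs (1.67 ± 0.28 and 1.01 ± 0.26), and the membrane protein Pdpn by 2.11 and 1.47. Gprc5a, a suppressor of lung tumours, rose by 2.53 and 1.89. Vegfa, the vascular growth factor, had 44.1, 96.6, 102, 102 and 102 FPKM in COPD and 404, 422, 374, 297 and 278 FPKM in WDD lungs (2.02 ± 0.22 and 1.38 ± 0.18), and Rtkn2 reached 13.1 to 21.1 FPKM, with controls at 50.8 ± 14.6 FPKM.

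Surfactant genes of type 2 cells rose as well, with exceptions. Of 19 genes, 10 rose under both scalings, while Lamp3, Napsa and Ctsh were lower after scaling and 0 as deposited. Sftpb, which spreads surfactant, stood at 415, 951, 816, 614 and 764 FPKM in COPD and at 2331, 2250, 2834, 2272 and 2251 FPKM in WDD lungs. For Sftpb the log2 fold change was 1.79 ± 0.21 and 1.14 ± 0.17 (adjusted p = 3.99e-06 and 8.81e-05, limma). Sftpc had 1842, 7219, 10695, 4764 and 3192 FPKM in COPD and 14370, 13144, 15851, 14550 and 14144 FPKM in WDD lungs (1.63 ± 0.36 and 0.98 ± 0.31), and without COPD 1 and COPD 5 it had 1.01 as deposited and 0.50 scaled, of which the scaled value did not pass (adjusted p = 0.178, limma). The lipid pump Abca3 rose by 1.28 and 0.66 and the phosphate transporter Slc34a2 by 1.72 and 1.08. Lamp3, a protein of lamellar bodies, had -0.02 ± 0.23 and -0.67 ± 0.20, of which the scaled value passed (adjusted p = 0.013, limma).

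Airway genes rose in part, with WDD 4 and WDD 5 above the other decoction libraries in the secretoglobins Scgb3a2 and Scgb1a1. Scgb3a2, a secretoglobin of club cells, stood at 7.64, 45.2, 33.8, 25.7 and 175 FPKM in COPD and at 292, 274, 354, 779 and 880 FPKM in WDD lungs (3.64 ± 0.57 and 3.01 ± 0.59, adjusted p = 5.75e-05 and 0.000714, limma), with controls at 263 ± 70.1 FPKM. Scgb1a1, the club cell protein itself, ran from 1928, 12836, 10721, 12878 and 14252 FPKM to 19377, 16735, 21696, 36057 and 37506 FPKM. It passed as deposited only (1.52 ± 0.46 and 0.87 ± 0.44), and its deposited value was 0.98 without COPD 1. Of 15 secretory genes 8 rose and 1, Hp, fell under both scalings. Of 15 genes of ciliated cells 12 rose as deposited and 7 after scaling, beside 57.1% and 23.3% of all genes. The microtubule protein Tppp3 was at 1.90 ± 0.28 and 1.25 ± 0.22 and the ciliary Cfap43 at 1.66 ± 0.26 and 1.15 ± 0.27.

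Enzymes that handle foreign compounds led the list of rises. Cyp2e1, which oxidises ethanol and small solvents, stood at 0.0693, 0.458, 4.03, 0.231 and 2.9 FPKM in COPD 1 to COPD 5 and at 40.9, 45.8, 55.3, 43.3 and 40.8 FPKM in WDD 1 to WDD 5, against 48.5 ± 12.6 FPKM in controls. Its log2 fold change was 4.48 ± 0.36 and 4.12 ± 0.42 (adjusted p = 1.35e-07 and 1.51e-06, limma). Fmo2, the flavin monooxygenase of lung, had 7.67, 16, 34.2, 9.54 and 123 FPKM in COPD and 581, 685, 455, 518 and 486 FPKM in WDD lungs (4.54 ± 0.51 and 3.91 ± 0.54), so that COPD 5 was the nearest to the decoction libraries. Cyp2f4, an enzyme of club cells, had 0.296, 0.896, 0.246, 0.235 and 3.46 FPKM and 12.6, 17.7, 20.3, 46.6 and 47.3 FPKM (3.90 ± 0.44 and 3.55 ± 0.48), with the decoction libraries 4 and 5 again highest. Cyp1a1, the classical target of the aryl hydrocarbon receptor that smoke activates, was listed at 0.0918, 0.108, 0.356, 0.17 and 0.137 FPKM in COPD and at 5.95, 4.05, 3.73, 8.22 and 7.56 FPKM in WDD lungs (2.51 ± 0.38 and 2.32 ± 0.37), near the control level of 6.62 ± 5.03 FPKM.

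Further enzymes followed. Cyp2b1 rose from between 10.4 and 37.8 FPKM in COPD to between 118 and 271 FPKM in WDD lungs, Fmo1 by 3.08 and 2.46, the epoxide hydrolase Ephx1 by 2.46 and 1.87 and the carboxylesterase Ces1d by 2.63 and 1.99. The retinal dehydrogenase Aldh1a1 rose by 2.83 and 2.20. Of 30 genes 25 rose and 0 fell as deposited (1 fell without COPD 5), and 21 rose and 3 (Ugt1a6, Mgst1 and Nqo1) fell after scaling, with medians of 1.61 and 1.03.

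Targets of the oxidant sensor NRF2 were mixed. Of 22 genes 3 rose and 5 fell under both scalings (23.3% and 6.63% of all genes), the former being Prdx6, Sod3 and Gpx3. Hmox1, which breaks down haem, stood at 104, 94.6, 95.2, 104 and 77.3 FPKM in COPD and at 22.9, 30.6, 27.1, 21.4 and 22.5 FPKM in WDD lungs (-1.90 ± 0.14 and -2.54 ± 0.14, adjusted p = 5.32e-08 and 1.88e-09, limma). Sod2, the mitochondrial superoxide dismutase that NF-kappaB also induces, fell from between 464 and 1774 FPKM in COPD to between 50.5 and 58.2 FPKM in WDD lungs (-3.62 ± 0.28 and -4.27 ± 0.32). The peroxiredoxins went apart, with Prdx5 at -1.88 ± 0.22 and -2.53 ± 0.21 and Prdx6 at 1.83 ± 0.19 and 1.19 ± 0.21. Nqo1 was at 0.23 ± 0.16 and -0.40 ± 0.15, positive as deposited and called lower after scaling, and Nfe2l2, NRF2 itself, passed under neither and as higher as deposited without COPD 5 (0.45).

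Metallothioneins were among the metal-binding genes that fell. Mt2A, a metallothionein, stood at 2625, 2423, 1398, 3158 and 12955 FPKM in COPD and at 175, 87.6, 67.5, 203 and 208 FPKM in WDD lungs. For Mt2A the log2 fold change was -4.59 ± 0.53 and -5.24 ± 0.57 (adjusted p = 3.49e-06 and 3.20e-06, limma), or -4.09 as deposited without COPD 5. Mt1 fell by 3.42 and 4.06. The zinc importer Slc39a14, an acute-phase target of interleukin-6, fell from between 8.96 and 23 FPKM in COPD to between 1.78 and 2.56 FPKM in WDD lungs, and the phagosomal metal pump Slc11a1 by 2.02 and 2.65. Of 10 genes 5 fell and 0 rose under both scalings, the fifth being the copper carrier Cp, and 1 rose as deposited without COPD 2 or without COPD 5.

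Eicosanoid genes moved in both directions. Ptgs2, the inducible cyclooxygenase, fell from 2.42, 3.4, 2.11, 6.19 and 12.8 FPKM in COPD to 1.13, 0.271, 1.26, 0.917 and 0.909 FPKM in WDD lungs (-1.54 ± 0.31 and -2.02 ± 0.35, adjusted p = 0.000541 and 0.000288, limma). Its constitutive relative Ptgs1 rose by 1.15 and 0.59. Pla2g2a, a secreted phospholipase of inflammation, fell from between 145 and 631 FPKM in COPD to between 24.9 and 68.2 FPKM in WDD lungs (-3.19 ± 0.43 and -3.84 ± 0.40), and Alox5ap, which serves leukotriene synthesis in leukocytes, by 2.22 and 2.87. Hpgd, which inactivates prostaglandins, was among the largest rises, from 1.78, 3.31, 5.97, 2.56 and 0.475 FPKM to 44.4, 43.2, 28.5, 32.4 and 35.2 FPKM (3.46 ± 0.29 and 3.0 ± 0.29). Over 15 genes 4 rose and 5 fell under both scalings (23.3% and 6.63% of all genes).

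Genes of hypoxia and glycolysis fell more often than they rose. Of 21 genes 9 fell and 2, Epas1 and the mitophagy gene Bnip3, rose under both scalings. Slc16a3, which exports lactate, stood at 69.3, 80.4, 56.1, 69.8 and 25.5 FPKM in COPD and at 5.43, 5.81, 5.03, 7.38 and 7.41 FPKM in WDD lungs (-3.0 ± 0.24 and -3.62 ± 0.22, adjusted p = 1.27e-07 and 4.73e-09, limma). The kinases Hk2 and Hk3, the latter typical of myeloid cells, fell by 2.0 and 2.49, and pyruvate kinase Pkm by 1.28 as deposited. Hif1a fell by 0.66 and 1.30, and without COPD 5 its deposited change was -0.39. Epas1, the related factor abundant in endothelium, rose from between 148 and 503 FPKM in COPD to between 507 and 680 FPKM in WDD lungs (1.38 ± 0.26 and 0.73 ± 0.27), and its scaled call ended without COPD 1 (0.62, adjusted p = 0.0975, limma).

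Most endothelial genes rose as deposited. Of 20 genes 17 rose as deposited and 10 after scaling, and 0 fell (1 as deposited without COPD 5), with medians of 1.54 and 1.06. Of all genes 57.1% rose as deposited and 23.3% after scaling. Gpihbp1, which anchors lipoprotein lipase in capillaries, stood at 2.26, 12.6, 16.7, 5.35 and 2.3 FPKM in COPD and at 74.3, 50.6, 76.1, 49.9 and 54.9 FPKM in WDD lungs (3.13 ± 0.40 and 2.58 ± 0.37, adjusted p = 8.28e-06 and 4.75e-05, limma). Kdr, the main receptor for Vegfa, rose by 2.19 and 1.60, and Ace, which makes angiotensin II, by 2.47 and 1.84. Ednrb, an endothelin receptor of alveolar capillaries, rose from between 0.567 and 4.29 FPKM in COPD to between 9.87 and 17.3 FPKM in WDD lungs, with controls at 51 ± 14.1 FPKM. The junction protein Cdh5 passed as deposited only (0.95 ± 0.30 and 0.31 ± 0.27), with a deposited value of 0.59 without COPD 1.

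Among matrix genes Eln and Fbln5 rose, while the fibrillar collagens Col1a1 and Col3a1 did not pass with all libraries. Col1a1 had 0.48 ± 0.36 and -0.10 ± 0.34 and Col3a1 had 0.20 ± 0.29 and -0.45 ± 0.24. Col3a1 passed as lower after scaling without COPD 5 (-0.69, adjusted p = 0.00496, limma). Dcn, a collagen-binding proteoglycan, had no deposited call and was called lower after scaling (0.06 ± 0.22 and -0.59 ± 0.19). Eln, elastin, stood at 5.67, 18.9, 14.3, 13.2 and 1.37 FPKM in COPD and at 30.9, 36.1, 32.3, 41.9 and 44.1 FPKM in WDD lungs (2.02 ± 0.42 and 1.46 ± 0.40, adjusted p = 0.000637 and 0.0085, limma), a deposited rise of 1.21 without COPD 1 and COPD 5. Fbln5, which assembles elastic fibres, rose by 2.49 and 1.95. Of 18 fibroblast genes 7 rose and 0 fell under both scalings, and of 24 matrix genes 12 rose and 2 fell, those of Tnc and Emilin1 (-1.10 and -0.44 as deposited). The call of Emilin1 ended when any 1 of COPD 1 to COPD 4 or of WDD 1, 3, 4 and 5 was left out, at -0.33 to -0.45.

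Secreted proteins of matrix and growth factor pathways were among the 12 largest rises. Ccn2, a target of TGF-beta and YAP, stood at 12.3, 27.7, 26.4, 16.2 and 1.93 FPKM in COPD 1 to COPD 5 and at 223, 158, 108, 189 and 202 FPKM in WDD 1 to WDD 5 (3.63 ± 0.45 and 3.03 ± 0.43, adjusted p = 6.87e-06 and 4.89e-05, limma), with COPD 5 the lowest library. Its relative Ccn1 did not pass (0.74 ± 0.37 and 0.10 ± 0.39), and passed as deposited without COPD 5 (0.97). Igfbp2, which binds insulin-like growth factors, rose from between 0 and 4.99 FPKM in COPD to between 11.8 and 29.7 FPKM in WDD lungs (3.26 ± 0.43 and 2.94 ± 0.50), Islr, of mesenchymal cells, from between 0.162 and 1.73 FPKM in COPD to between 13.1 and 30.7 FPKM in WDD lungs (3.42 ± 0.25 and 3.04 ± 0.27), and Cytl1, a small secreted protein, from between 0.676 and 3.5 FPKM in COPD to between 22 and 43.3 FPKM in WDD lungs (3.80 ± 0.25 and 3.36 ± 0.26). Ackr4, a scavenger of Ccl19 and Ccl21, went from between 0.144 and 0.971 FPKM in COPD to between 5.65 and 15.8 FPKM in WDD lungs (3.06 ± 0.22 and 2.81 ± 0.22). Chodl, a lectin-like membrane protein, rose by 3.15 and 2.80. Krtap17-1, a hair keratin-associated protein, completed the 12: it was listed at 0 in 4 of 5 COPD libraries and ran from 7.19 to 13.9 FPKM in WDD lungs.

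Inhibitors of metalloproteinases moved in opposite ways. Timp1 stood at 232, 343, 185, 324 and 847 FPKM in COPD and at 36.6, 40.5, 34.3, 67.1 and 57.9 FPKM in WDD lungs (-2.84 ± 0.34 and -3.48 ± 0.37, adjusted p = 4.62e-06 and 2.37e-06, limma). Timp3, which is held in the matrix, rose from 21.1, 16.2, 28.7, 15.7 and 64.1 FPKM to 292, 251, 137, 193 and 180 FPKM (2.97 ± 0.34 and 2.33 ± 0.37), below its control level of 774 ± 211 FPKM, and Timp2 rose by 2.25 and 1.61. Smooth muscle genes passed mostly as deposited, with 15 of 17 higher, and after scaling with 7 higher and 2, Des and Pdgfrb, lower. Of all genes 57.1% were higher as deposited, and 23.3% higher and 21.4% lower after scaling. Acta2, smooth muscle actin, had 41.8, 55.8, 52.5, 58.8 and 45.8 FPKM in COPD and 56.1, 66.6, 69.1, 130 and 130 FPKM in WDD lungs, where WDD 4 and WDD 5 stood highest, and its deposited call (adjusted p = 0.018, limma) ended without WDD 4 or without WDD 5 (log2 fold change 0.58 in each).

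In a list of muscarinic and adrenergic receptors and of ion and water transport, 8 of 13 genes rose and 0 fell under both scalings. Aqp1, the water channel of capillaries, stood at 9.02, 13.9, 18.9, 7.48 and 8.78 FPKM in COPD and at 113, 108, 97.9, 93.5 and 95.5 FPKM in WDD lungs. For Aqp1 the log2 fold change was 3.09 ± 0.20 and 2.48 ± 0.18 (adjusted p = 1.46e-08 and 3.42e-08, limma). The sodium channel subunits Scnn1a and Scnn1g rose by 1.38 and 2.0 as deposited, and the sodium pump subunit Atp1b1 by 2.05.

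Most clock genes were higher as deposited, and fewer after scaling. Of 16 clock genes 14 rose as deposited and 9 after scaling, beside 57.1% and 23.3% of all genes, with medians of 1.29 and 0.71. Per3 had 0.961, 2.75, 4, 4.21 and 6.16 FPKM in COPD and 26.7, 24.1, 24.5, 14.7 and 13.9 FPKM in WDD lungs (2.31 ± 0.27 and 1.80 ± 0.29, adjusted p = 4.71e-06 and 0.000143, limma), and Per2 and Tef rose by 1.67 and 2.23 as deposited. Arntl, which opposes the period genes in the cycle, was lower after scaling only (-0.15 ± 0.17 and -0.64 ± 0.17). The sources used here give no time of day of sampling. Of 14 glucocorticoid-responsive genes 5 rose and 1, Mt2A, fell under both scalings, with Tsc22d3 (Gilz) rising from between 64.2 and 94.8 FPKM in COPD to between 223 and 365 FPKM in WDD lungs (1.98 ± 0.16 and 1.34 ± 0.16), Ddit4 by 2.16 and 1.54, and Fkbp5 passing as deposited only (0.86 ± 0.21 and 0.23 ± 0.23).

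**Figure D5:**
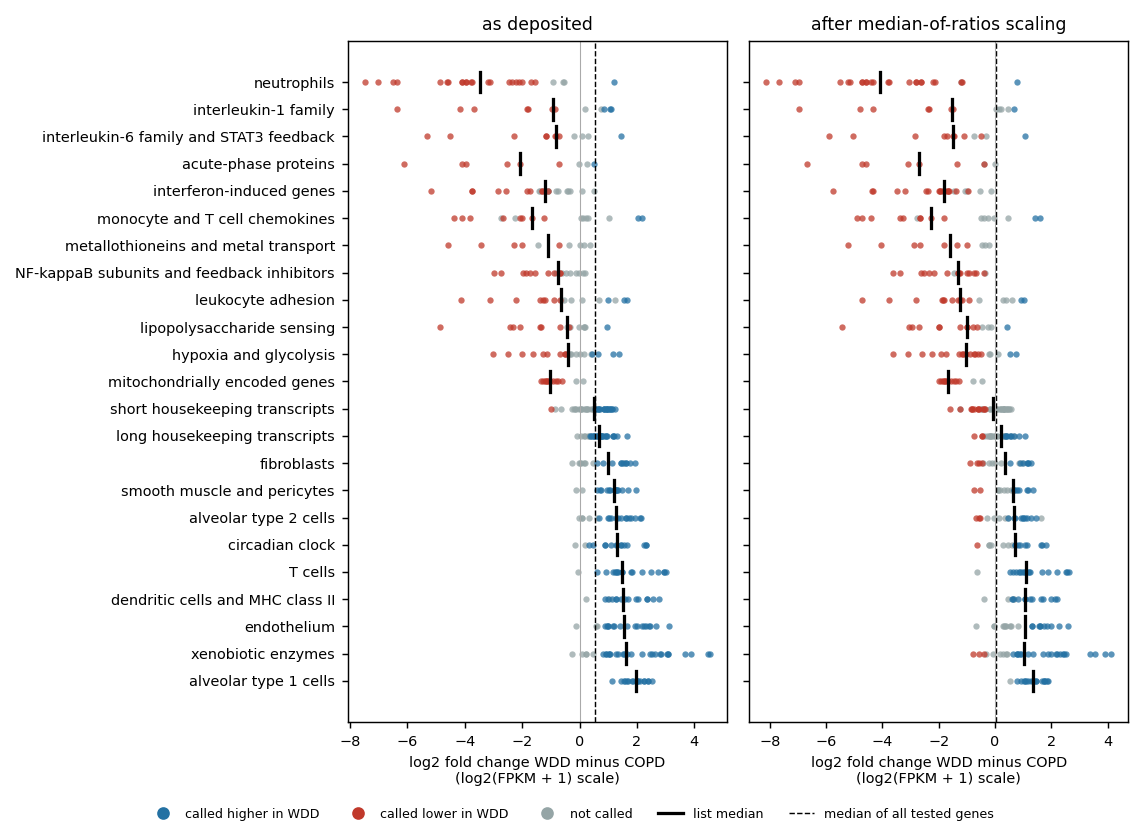
Log2 fold change of WDD against COPD lungs for each tested member (points) of 23 gene lists, as deposited (left) and after median-of-ratios scaling (right), with the list median (bar) and the median of all tested genes (dashed line, 0.54 and 0.03). Lists of neutrophil and inflammatory genes extend to the left, and lists of alveolar type 1 cells, xenobiotic enzymes, endothelium and T cells lie to the right of all genes.

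Mitochondrially encoded genes, whose share opened the comparison, fell on both scales, and quantile normalisation could not test this for the most abundant of them. Of 13, 11 fell and 0 rose under both scalings, with medians of -1.02 and -1.67, and 4 fell after quantile normalisation. Mt-co1, a subunit of cytochrome oxidase, stood at 152795, 62780, 80164, 94622 and 67301 FPKM in COPD and at 32605, 30484, 36480, 37333 and 33524 FPKM in WDD lungs (-1.35 ± 0.29 and -2.0 ± 0.33, adjusted p = 0.00092 and 0.000186, limma), and its value after quantile normalisation was -0.06 (adjusted p = 0.8, limma). Quantile normalisation gives every library the same set of values, so a gene near the top of each library hardly changes under it. For such genes it cannot show whether they fell. Of 22 nuclear genes listed for the same respiratory chain 19 were higher and 0 lower as deposited, where 57.1% of all genes were higher. Their medians were 0.72 and 0.11 beside 0.54 and 0.03. The list also holds Ppargc1a, a transcriptional co-regulator and not a part of the chain. After scaling Ndufv1, Uqcrc2 and Ppargc1a were higher and Cycs lower, where 23.3% of all genes were higher, and the scaled calls of Ndufv1 (0.29, adjusted p = 0.0856, limma) and Ppargc1a (0.34, adjusted p = 0.1, limma) ended without COPD 1. Ppargc1a did not pass after quantile normalisation either (0.04, adjusted p = 0.849, limma). Among housekeeping genes, 24 of 30 long and 19 of 38 short transcripts were higher as deposited, beside 57.1% of all genes. After scaling, beside 23.3% higher and 21.4% lower of all genes, 8 long ones were higher and 3 lower, and 0 short ones higher and 12 lower. The mean of long minus short transcripts per library was -3.14 ± 0.382 in COPD and -2.9 ± 0.29 in WDD lungs (mean ± SD, exact permutation p = 0.31, two-sided), against -1.03 ± 0.494 in controls, so that both exposed groups lay below the controls on this measure.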

How the data were processed

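RNA-seq of rat lung was read from 1 deposited table with 15 libraries. Per the labels' protocols, RNA was extracted with TRIzol and 1 ug was made into libraries with a NEBNext Ultra kit. The deposited values are FPKM per gene as the authors computed them, and the submitters' processing notes name cutadapt, HISAT2, StringTie and the build Rnor_6.0, with no tool versions given in the sources used here. The table holds no read counts, so absolute depth is unknown and no counting interval was computed. Depth relative to control 2, from the steps between low FPKM values, ran from 0.877 (COPD 4) to 1.11 (COPD 2).

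Genes with at least 1 FPKM in at least 5 of 15 libraries were fitted on log2(FPKM + 1) with limma 3.58.1 (R 4.3.3; eBayes with trend, 1 fit over 3 groups, contrast WDD minus COPD, Benjamini-Hochberg over all genes tested, called at an adjusted p under 0.05), as deposited and after median-of-ratios scaling. A fold change on this scale understates the change of low genes. Single library measures were compared with exact permutation tests (scipy 1.17.1). The fit was also run on simulated data with the same spread in all groups, no outlying library and no shift between libraries. The real libraries differ in these respects, so that run does not vouch for the calls given here. Named genes were the 12 largest changes each way among those called under both scalings with groups that do not overlap and a mean of at least 5 FPKM in the higher group, the first 6 members of each list and up to 5 called members of lowest p. Asns, Atf4, Casp9, Ctsh, Cxcl14, Cxcr1, Cybb, Cycs, Elane, Emilin1, Fas, Ier3, Il18, Il18r1, Il33, Itgb2, Mgst1, Napsa, Ngp, Pdgfrb, Ppargc1a, Sod3, Tab1, Tnc, Tnfrsf9 and Ugt1a6 fall outside that rule and were named after their values were seen. The members and the gene lists were chosen with earlier results of these data known. Alternatives changed the pseudocount, filter, libraries in the fit, variance model, fold minimum, scaling and replicate block and left out each library in turn. The mean of WDD 4 and WDD 5 as 1 library, and a fit without COPD 1 and COPD 5, were added after seeing the data. Promoter windows came from RefSeq (GRCr8) and were matched by symbol. Length was read only through 2 hand-written lists of long and short housekeeping transcripts, and a few genes are not reported here.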

Additional observations from a re-analysis of the deposited data

Results flagged for a closer look

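For each named gene and each group of 5 libraries, the highest or lowest library was compared with the other 4, and 36 of 474 groups held a library far from the rest (7.59%). Chance alone gives about 1 in 20 groups. Of the 36, 16 lay in COPD 5, 7 in WDD 3, 4 in WDD 1, 3 in COPD 1, 3 in WDD 5, 2 in WDD 2 and 1 in COPD 3.

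In COPD 5, interferon-induced genes stood above the other COPD libraries: Ifit1 at 879 FPKM, Ifit2 at 884 FPKM, Ifit3 at 1637 FPKM, Irf7 at 904 FPKM, Isg15 at 1200 FPKM, Mx1 at 258 FPKM and Mx2 at 269 FPKM. The same library was highest for Ccl2 at 314 FPKM, Ccl20 at 338 FPKM, Hk2 at 36.4 FPKM, Ngp at 349 FPKM, Rela at 88.9 FPKM, Sod2 at 1774 FPKM and Tnip1 at 561 FPKM. It was lowest for Ccl12 at 6.11 FPKM and Itgb2 at 38.3 FPKM. COPD 1 was lowest for Scgb1a1 at 1928 FPKM, Vegfa at 44.1 FPKM and Il18r1 at 0.591 FPKM, and COPD 3 alone held Krtap17-1 above 0, at 0.22 FPKM.

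In the decoction group, WDD 3 was highest for Cxcl1 at 47.1 FPKM, Cd74 at 1991 FPKM and Sftpb at 2834 FPKM, and lowest for Epas1 at 507 FPKM, Fmo1 at 139 FPKM, Hif1a at 20.2 FPKM and Tnfsf10 at 18.4 FPKM. WDD 1 was highest for Ccr7 at 17.3 FPKM, Mrc1 at 61 FPKM and Tcf7 at 38.1 FPKM, and lowest for Cd79a at 8.53 FPKM. WDD 2 was lowest for Cd3g at 34.8 FPKM and highest for Tlr2 at 7.15 FPKM. WDD 5 was lowest for Ebi3 at 0.528 FPKM, Nfe2l2 at 57.9 FPKM and Rel at 1.08 FPKM.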

How the results depend on the processing

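The counts of genes turned on the scaling. Of the 7526 higher and 873 lower genes as deposited, median-of-ratios scaling gave 3075 and 2819, quantile normalisation 2910 and 2469, and the FPKM sum without mitochondrially encoded genes 4544 and 1511. A tested minimum of 1 on the log2 scale left 527 higher and 207 lower as deposited, 130 and 365 after scaling, and 130 and 207 under both. With a mean FPKM of at least 5 the higher genes after scaling and under both numbered 2012, out of fewer genes tested. Leaving out 1 library gave 6814 to 7750 higher and 773 to 1061 lower as deposited, and 2713 to 3481 and 2497 to 3334 after scaling. The other alternatives kept these counts within 1.5 times. The library measures kept their direction and side of the threshold throughout.

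Of 234 named genes, 187 kept direction and call under every setting counted here and 205 under all but the scalings. The settings counted changed the deposited fit, and the scaled values entered only as 1 fit with all libraries. Leaving out a library on the scaled values was not counted, and it moved some calls. Icam1 became lower without COPD 1 (-0.80, adjusted p = 0.0073, limma), and Col3a1 without COPD 5 (-0.69, adjusted p = 0.00496, limma). The deposited sign turned, with a call in at least 1 fit, in Ctsh (-0.56), Dcn (-0.59), Mgst1 (-0.57), Napsa (-0.55), Nqo1 (-0.40) and Pdgfrb (-0.52) after median-of-ratios scaling, in Casp9 under quantile normalisation (-0.08), and in Ctsh (-0.40) and Mgst1 (-0.43) without COPD 1 and COPD 5. The cause was not tested. Il6, Orm1, Cxcl6 and Elane could not be fitted without a COPD library, because they then miss the filter of 5 libraries.

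No pairing by replicate number was seen in the deviations from the group means. Same-numbered WDD and COPD libraries correlated at -0.138 to 0.0942, and 0 of 5 pairs lay above 0.1. Only WDD 1 matched its own number best. A weak pairing could not be seen in this way. With the replicate block 7327 genes were higher and 854 lower as deposited, and 2918 and 2686 after scaling. Absolute depth, which limits low genes, is not in FPKM values.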

Other observations

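Immediate early and stress genes went both ways. Of 22 immediate early genes, 4 fell and 2 rose under both scalings at the threshold used in the comparison (6.63% of all genes were lower and 23.3% higher under both). The falling ones were the AP-1 subunits Junb and Fosl2 (-0.72 and -1.69 as deposited), Ier3 (-0.82) and Zfp36, which destabilises cytokine transcripts (-1.12). The nuclear receptor Nr4a2 (1.45) and Klf4 (1.58) rose. The calls of Junb and Ier3 ended without COPD 5, WDD 2, WDD 4 or WDD 5, and that of Junb also without COPD 2, with values of -0.60 to -0.66 for Junb and -0.55 to -0.76 for Ier3. Among 21 genes of heat shock and the unfolded protein response, 7 were higher and 2 lower as deposited (57.1% and 6.63% of all genes). After scaling 1 was higher and 6 lower (23.3% and 21.4%). Under both scalings Atf4 and its target Asns fell (-0.63 and -0.40 as deposited) and Herpud1 rose (1.56). The call of Asns ended when COPD 2, COPD 3, COPD 4, WDD 1, WDD 2, WDD 3 or WDD 5 was left out (-0.30 to -0.41), and Atf4 was at -0.41 without COPD 5.

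Of 3 genes of basal and squamous epithelium, Sfn and Dsg3 fell (-1.03 and -2.50 as deposited) and Krt15, a basal keratin, rose (2.44). Of 13 genes of mast cells and eosinophils 3 were tested, with median changes of -0.09 as deposited and -0.57 scaled. Kit, the stem cell factor receptor that mast cells carry, was the only riser (2.21 as deposited and 1.66 scaled), and 1 other member was lower after scaling. Of 9 genes of lymphatic vessels and mesothelium, Lyve1, Pdpn, Ccl21 and Krt19 rose under both scalings and 0 fell. Of 19 cell cycle genes Aurkb alone rose under both (2.20 and 1.60) and 0 fell under both, beside 23.3% and 6.63% of all genes. After scaling 5 were lower, near the background of 21.4% of all genes. Without COPD 5 the scaled count was 12, where 3334 of all genes were lower. After quantile normalisation it was also 12, where 2469 of 13172 genes were lower. As deposited 4 of the 19 fell without COPD 5, and 1 without COPD 1 or COPD 4. Of all genes 6.63% fell as deposited with every library.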
